A study of Homo sapiens with 12 samples.

Results

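The kinesin family of microtubule motors was followed through RNA-seq counts of MDA-MB-231 cells grown in 3D with and without Paclitaxel. The members were taken by gene symbol: 40 kinesin genes of the 63568 gene identifiers in the count table. They were placed by their textbook roles into 13 mitotic kinesins, 15 kinesins of cargo transport and 12 other kinesins. Of the 40, 37 had enough counts to be tested, and KIF1A, KIF19 and KIF26A did not.

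MDA-MB-231 is a human breast cancer cell line that lacks the estrogen and progesterone receptors and HER2 amplification, and all samples carried a fluorescent nuclear label and were grown in Matrigel droplets. There were 12 samples in 6 conditions of 2: untreated cells at day 2 (C1), untreated cells at day 4 (C2), and cells at day 4 that had received Paclitaxel at 0.0005, 0.005, 0.05 or 0.5 μM. According to the labels, the drug was added on day 2. No sample without drug was matched to the treated samples other than C2, and C1 differed from them in time as well as in drug. The methods call the 2 samples of a condition biological replicates without saying how they were separated, so the p-values measure the spread between these samples, and all samples came from 1 cell line.

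Kinesins are ATP-driven motors that walk along microtubules or take them apart at their ends. Mitotic kinesins build the spindle, move chromosomes and complete cytokinesis, and many of their genes are transcribed mainly in late cell cycle phases. Transport kinesins carry vesicles, organelles and protein complexes in cells of any phase. Paclitaxel binds and stabilises microtubules, the track of both groups, and is known for holding dividing cells in mitosis. In bulk RNA, fewer cells in a phase and less RNA of a gene per cell cannot be told apart.

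The promoter windows of the mitotic members shared a short element that the grouping by role had not used. Genes of late cell cycle phases are known to carry, near the start site, a cell cycle homology element with the core TTTGAA or TTTAAA, which is bound by DREAM and MuvB complexes, and CCAAT boxes, which are bound by NF-Y. RefSeq promoter windows (GRCh38.p14) of 300 bases, 250 before the start site and 50 from it on, gave 1 window each for 25 of the 40 members, several windows for 7 and none for KIF5A, KIF13B, KIFC2, KIFC3, KIF19, KIF21B, KIF26B and KIF27. The letters TTTGAA and the letters TTTAAA, as well as CCAAT, were searched on both strands, and matches of different motifs could overlap. TTTGAA or TTTAAA was present in all 12 mitotic members with 1 window, in 2 of 8 transport members (KIF5B and KIF16B) and in 0 of 5 other members, against 24% of all 35116 windows. The match nearest the start site lay between position -62 (CENPE) and position 25 (KIF20B) in the 12 mitotic members, while it began at -140 in KIF5B and at -241 in KIF16B. CCAAT was present in 9 of the 12 mitotic and in 2 of the 8 transport windows, against 34.6% of all windows. Both kinds together were present in 75% of the mitotic windows and in 9.27% of all windows. The mitotic member KIF22 had 2 windows, of which 0 held TTTGAA or TTTAAA and 1 held CCAAT. A match is a description of letters and was not tested as a binding site.

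The windows are shown for KIF11, KIF15 and KIF18B, the mitotic members with the largest difference between treated and untreated samples, for KIF20A, which was picked after its values were seen because it had the steepest rise with dose, and for KIF5B, the transport member with the highest level per length. They lie at chr10:92592880-92593179 on the plus strand, chr3:44761544-44761843 on the plus strand, chr17:44947724-44948023 on the minus strand, chr5:138178862-138179161 on the plus strand and chr10:32056376-32056675 on the minus strand, and read 5′ to 3′ along the gene. Capitals mark TTTGAA or TTTAAA and CCAAT, which read TTCAAA and ATTGG where they lie on the other strand.
KIF11: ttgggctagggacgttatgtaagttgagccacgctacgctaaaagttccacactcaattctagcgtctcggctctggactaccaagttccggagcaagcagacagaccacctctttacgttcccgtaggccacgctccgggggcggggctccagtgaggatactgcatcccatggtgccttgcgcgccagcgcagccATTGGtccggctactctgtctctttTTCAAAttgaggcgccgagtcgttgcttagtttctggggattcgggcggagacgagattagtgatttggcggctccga
KIF15: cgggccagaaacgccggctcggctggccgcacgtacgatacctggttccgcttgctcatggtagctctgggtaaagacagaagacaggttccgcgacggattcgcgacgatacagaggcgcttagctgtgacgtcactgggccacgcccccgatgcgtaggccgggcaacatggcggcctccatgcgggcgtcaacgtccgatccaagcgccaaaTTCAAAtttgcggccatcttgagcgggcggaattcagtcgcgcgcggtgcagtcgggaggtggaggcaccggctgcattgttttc
KIF18B: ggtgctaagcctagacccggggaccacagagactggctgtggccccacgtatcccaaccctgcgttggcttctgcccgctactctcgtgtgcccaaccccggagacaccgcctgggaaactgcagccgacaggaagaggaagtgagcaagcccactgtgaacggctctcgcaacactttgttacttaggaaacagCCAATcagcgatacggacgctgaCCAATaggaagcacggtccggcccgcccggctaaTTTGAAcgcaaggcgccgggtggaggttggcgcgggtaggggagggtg
KIF20A: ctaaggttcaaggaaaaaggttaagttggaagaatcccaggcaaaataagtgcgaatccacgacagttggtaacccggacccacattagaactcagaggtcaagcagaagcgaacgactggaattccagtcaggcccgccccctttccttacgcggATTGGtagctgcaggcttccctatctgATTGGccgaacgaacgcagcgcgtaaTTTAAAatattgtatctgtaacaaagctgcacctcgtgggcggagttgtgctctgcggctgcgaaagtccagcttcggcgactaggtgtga
KIF5B: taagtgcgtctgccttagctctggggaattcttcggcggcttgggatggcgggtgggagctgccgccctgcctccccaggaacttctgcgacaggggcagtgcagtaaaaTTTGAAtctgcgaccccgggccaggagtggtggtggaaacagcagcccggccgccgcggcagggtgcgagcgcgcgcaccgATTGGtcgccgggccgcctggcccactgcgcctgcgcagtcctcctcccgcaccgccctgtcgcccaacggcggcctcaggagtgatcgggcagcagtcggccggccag
In KIF11 the ATTGG began at -53 and the TTCAAA at -28, and in KIF18B CCAAT began at -55 and -32 and TTTGAA at 3. In KIF20A ATTGG began at -94 and -67 and TTTAAA at -41. KIF15 held a TTCAAA at -35 and no CCAAT.

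The samples held between 38380629 and 79169121 counts, and mitochondrial genes took 3.73% to 7.74% of them. C1 replicate 2 was the shallowest sample and had the highest mitochondrial share. The log2 ratio of replicate 1 to replicate 2 correlated with GC content over the 37 members in C1 (Pearson r = 0.602, across genes that share both libraries). At 0.05 μM r was -0.494, which is of similar size, as the sign depends only on which sample is numbered 1. In the remaining conditions r lay between 0.00723 and 0.273. The median GC content of the exons was 41.1% in the mitotic, 49.1% in the transport and 51.2% in the other members. Comparisons that include C1 were also run without each of its samples and against C2 alone, and every other sample was left out in turn as well. The cell line's markers VIM, CD44, CAV1, AXL and MSN were at 237 to 1370 CPM (counts scaled to the effective library size) in every sample, ESR1 and PGR stayed below 0.5 CPM, and ERBB2 was at 26.6 to 52.4 CPM. Of 6 fibroblast markers, the defining genes DCN, LUM and COL1A2 were at or below 0.505 CPM, COL1A1 at 4.8 to 9.85 CPM and PDGFRB at 3.61 to 9.15 CPM. Of the cell line's markers, AXL (553 against 301 CPM on average) and CAV1 (465 against 368 CPM) were called lower in treated samples, with edgeR adjusted p of 0.00113 and 0.0351. Against C2 alone AXL was still called (log2 fold change -0.67, edgeR adjusted p = 0.00497) and CAV1 was not (-0.20, edgeR adjusted p = 0.283). COL3A1 had a higher fitted level in treated samples (0.938 against 0.235 CPM on average), as had the leukocyte marker PTPRC at 0.195 against 0.0667 CPM. Their edgeR adjusted p was 0.00407 and 0.0409, and against C2 alone it was 0.0562 and 0.278. With dose, COL3A1 alone of the 4 fibroblast markers tested was called, rising by 0.62 on the log2 scale per 10-fold dose (edgeR adjusted p = 0.0129). CDH5 of endothelial cells stayed at or below 0.463 CPM.

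In level per exon length, the family was led by 1 transport motor followed by mitotic motors. KIF5B, the heavy chain of conventional kinesin in most tissues, had 75.1 ± 7.39 RPKM (CPM per kilobase of exon; SD over all 12 samples), and its range of 67.4 to 91.2 RPKM lay above that of every other member. KIF20A, which brings the chromosomal passenger complex to the spindle midzone, followed at 35.0 ± 9.71 RPKM. KIF2C, a microtubule depolymerase at centromeres, had 27.9 ± 4.98 RPKM, and KIF11, the motor that pushes spindle poles apart, had 23.2 ± 6.12 RPKM. The ranges of these 3 overlapped, as did those of KIFC3 at 22.4 ± 4.65 RPKM and KIFC1 at 20.2 ± 4.74 RPKM. All 13 mitotic members were among the first 18 in this order, with KIF18B lowest at 5.34 ± 1.76 RPKM. The neuronal transport motors KIF1A, KIF5A, KIF5C and KIF17 were at or below 0.251 RPKM on average. Members of cilia and of atypical, non-motile type were also low, with KIF6, KIF12, KIF19, KIF26A and KIF26B at or below 0.0466 RPKM, while KIF7, KIF9, KIF24 and KIF27 had 1.52 to 2.42 RPKM.

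**Figure D1:**
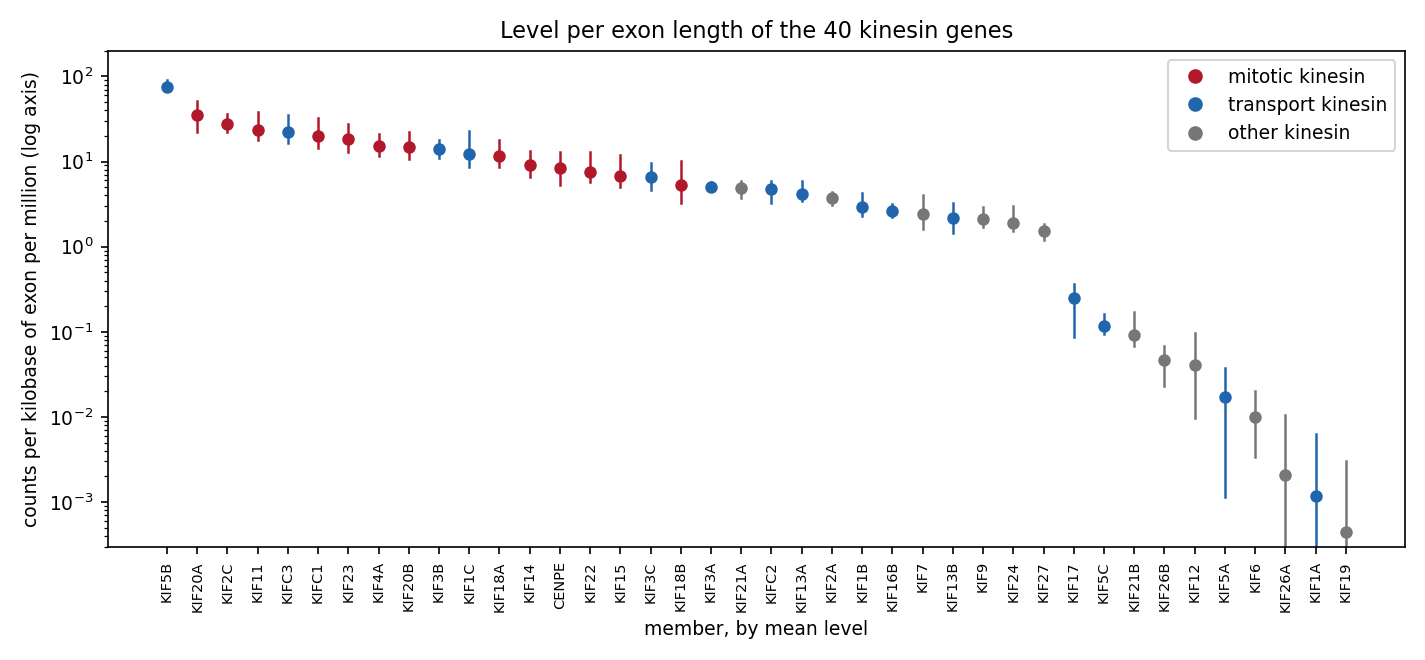
Mean level per exon length of the 40 kinesin genes (points) with the range over the 12 samples (lines), in RPKM on a log axis, ordered by mean. KIF5B stands at 75.1 and the 13 mitotic members lie between 5.34 and 35.0; lines that reach the lower edge end at 0.

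Without drug, all 13 mitotic kinesins had lower fitted levels at day 4 than at day 2, while the direction of the transport kinesins depended on 1 library. The median log2 fold change from day 2 to day 4 was -0.47 over the 13 mitotic members, all of which were negative, 0.06 over the 14 transport members tested and -0.02 over all 25249 genes tested. The transport median was 0.26 without C1 replicate 1, with 13 of 14 members positive, and -0.12 without C1 replicate 2, with 6 of 14 positive. None of the 37 members passed an adjusted p of 0.05 in edgeR's quasi-likelihood test, which called 82 genes in all (0.325%). At an unadjusted p under 0.05 there were 11 members lower, all of them mitotic, and 1 higher, KIFC2, a motor of axonal transport, against 4.71% and 5.29% of all genes.

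KIF23, the motor of centralspindlin in cytokinesis, had 172 and 182 CPM at day 2 and 116 and 126 CPM at day 4, which did not overlap. Its log2 fold change was -0.55 ± 0.14 (SE, n = 2 and 2, edgeR adjusted p = 0.205). KIF20A went from 171 and 143 CPM to 105 and 105 CPM, and KIF2C from 130 and 128 CPM to 89.3 and 90.1 CPM. DESeq2 called 1 member here. With C1 replicate 1 left out, the median log2 fold change of the mitotic members was -0.45, and with C1 replicate 2 left out it was -0.48. All 13 were negative in both fits. Which members edgeR called changed with the sample left out, and no mitotic member was called in both. Every fit without 1 of the C1 samples rests on a lone day 2 sample that is assumed to vary like the others.

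At the 2 lowest doses, mitotic kinesins were below the untreated day 4 samples. At 0.0005 μM, 11 of 13 mitotic members had both treated samples below both C2 samples, and at 0.005 μM all 13 did, against 5 and 9 of 14 transport members and 25.9% and 29.3% of all genes tested. The opposite order, above both C2 samples, held for 0 mitotic and 2 transport members at each dose and for 27.1% and 32.9% of all genes. The median log2 fold change of the mitotic members was -0.37 at 0.0005 μM and -0.39 at 0.005 μM, that of the transport members was -0.18 and -0.21, and that of all genes tested was -0.01 and 0.04. Among the genes with at least 8 CPM on average, a level that 30 members reached, it was -0.04 and -0.12. All 4 dose comparisons share the 2 C2 samples.

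Within the adjusted threshold, however, no mitotic member was called at either dose. At 0.0005 μM edgeR called 0 of 37 members and 2.34% of all genes, with 8 members lower and 1 higher at an unadjusted p under 0.05, against 7.4% and 9.55% of all genes, while DESeq2 called 2 members. At 0.005 μM it called 0 members lower, against 0.776% of all genes, and 1 higher, KIF5A, against 2.5%. These counts depended on the C1 samples, which are not in the contrast but enter the shared estimate of spread. With C1 replicate 1 left out, 6 mitotic members were called lower at 0.0005 μM beside 1148 of 26785 genes, and 7 at 0.005 μM beside 1714 genes (4.29% and 6.4% of all genes, 8.02% and 13.7% of those with at least 8 CPM), and the counts of mitotic members were 6 and 7 again with C1 replicate 2 left out. The 6 were KIF11, KIF14, KIF15, KIF18A, KIF18B and CENPE, and the 7 were KIF11, KIF14, KIF15, KIF18A, KIF18B, KIF22 and KIF23.

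KIF18B (ENSG00000186185; GRCh37 chromosome 17, 43002077 to 43025141, minus strand), which acts on the ends of astral microtubules, illustrates the low doses. It had 27.2 and 27.7 CPM in C2, 18.3 and 15.3 CPM at 0.0005 μM and 19.6 and 18.3 CPM at 0.005 μM. The log2 fold changes were -0.70 ± 0.21 (SE, n = 2 and 2, edgeR adjusted p = 0.105) and -0.53 ± 0.21 (edgeR adjusted p = 0.187). KIF14, which works with citron kinase in cytokinesis, also had all of these low-dose samples below C2, with 71.1 and 69.8 CPM in C2, 48.2 and 54.0 CPM at 0.0005 μM and 52.0 and 50.5 CPM at 0.005 μM. Permuting 2 and 2 samples, an exact test cannot return less than p = 0.333.

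At the 2 highest doses, the mitotic kinesins lay on both sides of the untreated day 4 level, and KIF20A alone of them was called, as higher, at 0.5 μM. The median log2 fold change of the mitotic members was -0.11 at 0.05 μM, with 8 of 13 negative, and 0.16 at 0.5 μM, with 9 of 13 positive. Without 0.5 μM replicate 1 the latter was 0.0328. The number of mitotic members with both treated samples below both C2 samples was 7 at 0.05 μM and 2 at 0.5 μM (KIF11 and KIF18B), and 2 and 6 had both samples above. Of all genes tested, 26.9% at 0.05 μM and 27.3% at 0.5 μM had both samples below, and 26.1% and 31.7% had both above. The transport members had medians of -0.21 and -0.33, against -0.11 at both doses for genes with at least 8 CPM, with 6 and 10 of 14 below both C2 samples and 2 above at each dose. edgeR called none of the 14 lower at either dose, with 3 lower and 2 higher at an unadjusted p under 0.05 at each, against 11.1% lower and 12.6% higher of all genes at 0.05 μM and 9.91% and 13% at 0.5 μM.

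At 0.5 μM, 9 of the 13 mitotic members had positive and 4 negative fold changes, and KIF20A alone was called. Among those not called, KIF20B was at 0.44 (log2, edgeR adjusted p = 0.15) and KIF2C at 0.39 (edgeR adjusted p = 0.163). KIF20A had 105 and 105 CPM in C2, 85.9 and 126 CPM at 0.0005 μM, 96.1 and 100 CPM at 0.005 μM, 169 and 142 CPM at 0.05 μM and 200 and 175 CPM at 0.5 μM. The samples of the 2 highest doses lay above all C2 samples and above those of the 2 lower doses. The log2 fold change was 0.84 ± 0.18 at 0.5 μM (SE, n = 2 and 2, edgeR adjusted p = 0.0208) and 0.57 ± 0.18 at 0.05 μM (edgeR adjusted p = 0.078). The call at 0.5 μM was lost, with an adjusted p of up to 0.184, when either C2 sample or either 0.5 μM sample was left out. The gene (ENSG00000112984; GRCh37 chromosome 5, 137514408 to 137523412, plus strand) shares 132 of its 3852 exon bases with BRD8 and 74 with CDC23, both on the opposite strand. Whether reads were counted by strand is not given in the sources used here. BRD8 had 89.8 and 94.2 CPM in C2 and 133 and 140 CPM at 0.5 μM, and CDC23 had 50.2 and 47.4 CPM in C2 and 49.2 and 41.5 CPM at 0.5 μM. The part of these genes in the KIF20A values was not tested.

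Across the members, edgeR called 1 lower (KIF21A) and 1 higher (KIF5A) at 0.05 μM, against 3.23% of all genes lower and 5.09% higher. At 0.5 μM it called 0 lower and 2 higher (KIF20A and KIF5A), against 1.96% and 4.36%. KIF21A, which restrains microtubule growth at the cell cortex, had 58.8 and 56.9 CPM in C2 and 41.4 and 38.0 CPM at 0.05 μM, a log2 fold change of -0.54 ± 0.13 (SE, n = 2 and 2, edgeR adjusted p = 0.0291). That call was kept in 3 of the 12 fits that left out 1 sample. Leaving out C1 replicate 1 or 2 gave 10 called members at 0.05 μM in each fit, and 9 and 10 at 0.5 μM, which is 24.3% to 27% of the members, while the same fits called 18% to 18.8% of all genes and 22.4% to 25.4% of genes with at least 8 CPM. Among those at 0.5 μM, KIF20A and KIF20B were higher in both fits, and KIF1C, KIF3B, KIF3C, KIF13A, KIF13B and KIF21A were lower in both.

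**Figure D2:**
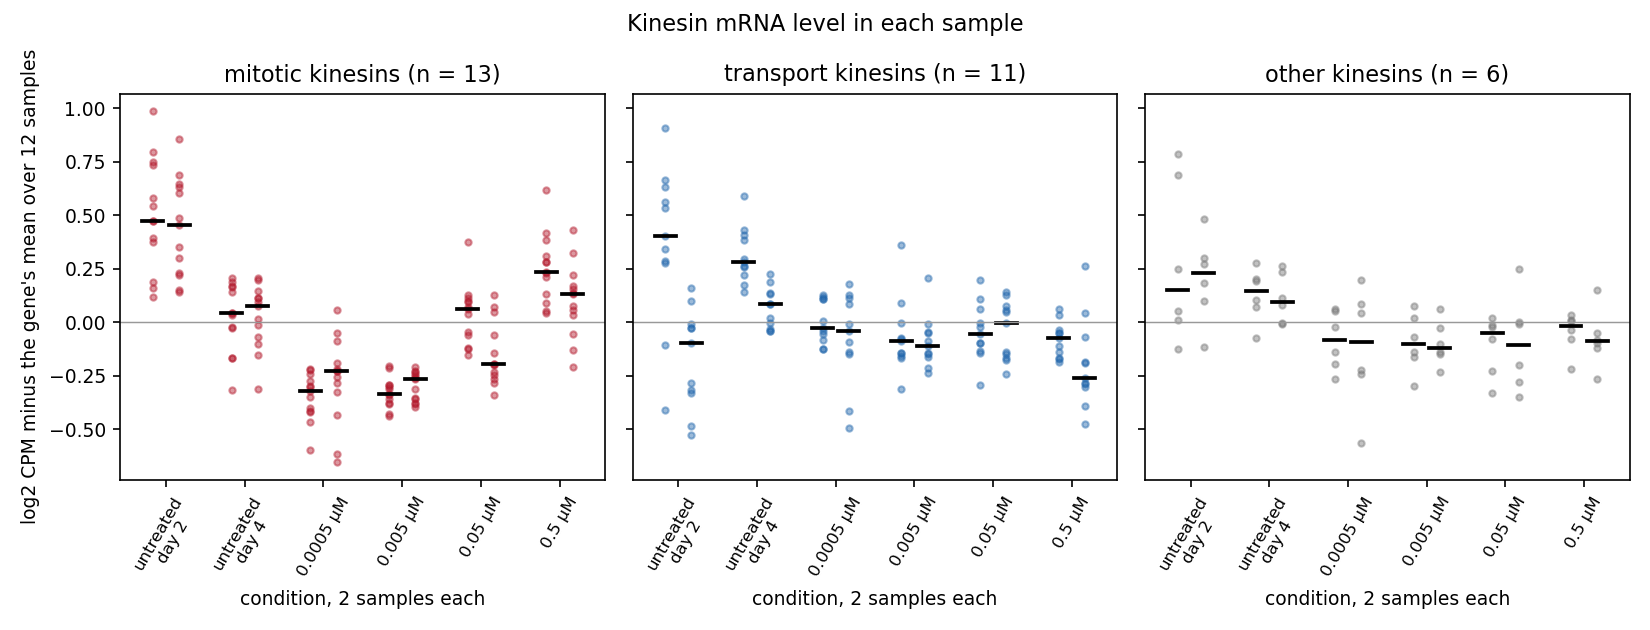
Log2 CPM of each kinesin minus its own mean over the 12 samples, for members with at least 2 CPM on average (13 mitotic, 11 transport, 6 other); each point is 1 gene in 1 sample, replicate 1 left of replicate 2, and the bar is the median. Mitotic members were highest at day 2, lowest at 0.0005 and 0.005 μM and above those doses at 0.5 μM, and the 2 day 2 samples lie apart for the transport members.

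Summed over the 13 mitotic members, the level per length was highest at day 2 and lowest at the 2 lower doses. It was 281 and 263 RPKM in C1, 195 and 194 in C2, 155 and 175 at 0.0005 μM, 156 and 162 at 0.005 μM, 211 and 182 at 0.05 μM, and 245 and 221 at 0.5 μM. The sum over the 15 transport members was 200 and 152 RPKM in C1, 178 and 152 in C2, and between 136 and 149 in the treated samples. For the mitotic sum, C1 and 0.5 μM lay apart from the lower doses, and for the transport sum the C1 and C2 replicates differed from each other by more than the treated samples did.

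Within the 8 treated samples, which do not involve the untreated ones, 7 of 13 mitotic kinesins rose with dose. The change per 10-fold dose was positive for all 13 mitotic members, with a median of 0.17 on the log2 scale, against -0.02 for the transport members, -0.02 for the other members and 0.01 for all 25057 genes tested. edgeR called those 7 mitotic members as rising and 0 of the remaining 24 members in either direction, against 1.04% of all genes rising and 2.11% falling. Among the 11154 genes with at least 8 CPM on average, 111 rose.

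KIF20A had the steepest slope, 0.31 ± 0.06 (SE, n = 8, edgeR adjusted p = 0.0134). KIF20B, a motor of late cytokinesis, had 80.5 and 73.4 CPM at 0.0005 μM, 85.6 and 84.7 CPM at 0.005 μM, 107 and 86.4 CPM at 0.05 μM and 129 and 124 CPM at 0.5 μM. Its slope was 0.23 ± 0.04 (edgeR adjusted p = 0.00683), and it was called in all 8 fits that left out 1 treated sample. CENPE, which moves chromosomes to the spindle equator, had 68.3 and 52.7 CPM at 0.0005 μM and 108 and 90.7 CPM at 0.5 μM, a slope of 0.22 ± 0.05 (edgeR adjusted p = 0.015). KIF18B (0.21), KIF18A (0.18), KIF23 (0.18) and KIF14 (0.17) also rose, with edgeR adjusted p between 0.0177 and 0.0391. KIF18A shortens and steadies the microtubules of aligned chromosomes. The 0.5 μM samples of these 6 members were above those of the 0.0005 μM samples without overlap.

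The remaining 6 mitotic members had positive slopes that did not pass the adjusted threshold, from 0.06 for KIF11 and 0.08 for KIF22 to 0.16 for KIF4A and KIFC1. The number of called members was 2 without 0.0005 μM replicate 1, 1 without 0.5 μM replicate 1 and 3 without 0.5 μM replicate 2. The sign of the slope stayed positive for all 13 mitotic members in each of the 8 fits that left out 1 treated sample. Of the 14 transport members 2 had an unadjusted p under 0.05, both lower, against 9.97% of all genes lower, of which KIF3B, a subunit of heterotrimeric kinesin-2, had a slope of -0.12 ± 0.03 (edgeR adjusted p = 0.0791).

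**Figure D3:**
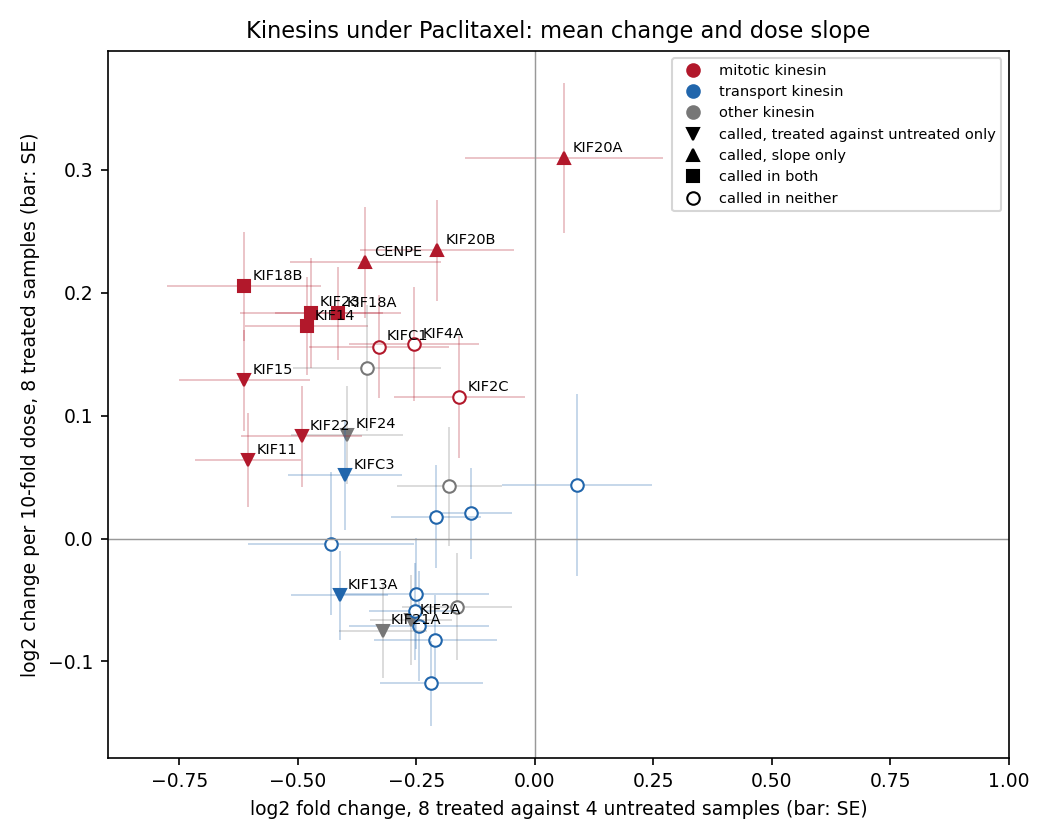
Log2 fold change of the 8 treated against the 4 untreated samples (horizontal, with SE) and log2 change per 10-fold dose within the 8 treated samples (vertical, with SE) for 30 kinesins with at least 2 CPM on average; symbols give which of the fits called the gene. All 13 mitotic members lie above the horizontal line and 12 of them left of the vertical line, with KIF20A alone of the 13 to its right.

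Taking all 8 treated samples against all 4 untreated ones, 7 mitotic kinesins were lower: KIF11, KIF14, KIF15, KIF18A, KIF18B, KIF22 and KIF23. The median log2 fold change was -0.42 over the mitotic, -0.21 over the transport and -0.29 over the other members. It was -0.0019 over all genes tested and -0.15 over the 11154 genes with at least 8 CPM, as 30 members had. edgeR called 12 members lower and 2 higher, against 11.3% and 13.1% of all genes and against 2353 lower and 430 higher among the 11154. The spread of this fit contains the dose and the day as well as the replicates. The difference itself also mixes the day with the drug, because the C1 samples are from day 2 and all treated samples from day 4.

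KIF11 (ENSG00000138160; GRCh37 chromosome 10, 94333862 to 94415152, plus strand), the target of several antimitotic inhibitors, had 202 and 168 CPM in C1 and 137 and 133 CPM in C2. It had 103 and 102 CPM at 0.0005 μM, 94.7 and 100 CPM at 0.005 μM, 108 and 98.6 CPM at 0.05 μM and 124 and 110 CPM at 0.5 μM. All 8 treated samples were below all 4 untreated ones. The log2 fold change was -0.61 ± 0.11 (SE, n = 8 and 4, edgeR adjusted p = 0.0011), and a two-sided exact permutation test gave p = 0.00202, the smallest it can give. That test treats the 12 samples as exchangeable, although they come in 6 conditions of 2 and the C1 samples are from day 2. It therefore cannot separate the drug from the day.

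KIF15 (ENSG00000163808; chromosome 3, 44803213 to 44914868, plus strand), which shares the work of KIF11 in keeping spindles bipolar, had 48.1 and 62.8 CPM in C1, from 35.7 CPM in C2 and 26.7 to 37.9 CPM in the treated samples, which overlapped the C2 samples. Its log2 fold change was -0.61 ± 0.14 (edgeR adjusted p = 0.0042). KIF18B had 47.9 and 28.1 CPM in C1 and 15.3 to 25.7 CPM in the treated samples, and with 27.2 CPM as its lowest untreated value its groups did not overlap. Its log2 fold change was -0.61 ± 0.16 (edgeR adjusted p = 0.0119). The chromokinesin KIF22 (-0.49), KIF14 (-0.48), KIF23 (-0.47) and KIF18A (-0.42) followed, with edgeR adjusted p between 0.00968 and 0.03. KIF11 and KIF18B were the 2 of 13 mitotic members whose 8 treated samples all lay below the 4 untreated ones, which held for 5.77% of all genes tested. CENPE (-0.36), KIFC1 (-0.33), KIF4A (-0.25), KIF20B (-0.21), KIF2C (-0.16) and KIF20A (0.06) were not called.

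Against the untreated day 4 samples alone, 1 of 13 mitotic members was called, KIF11 at -0.35 ± 0.10 (SE, n = 8 and 2, edgeR adjusted p = 0.0305), a share near the 6.42% of all genes called lower in that fit, and the median of the mitotic members was -0.16. KIF14 (-0.26), KIF15 (-0.30), KIF18A (-0.25), KIF18B (-0.35), KIF22 (-0.25) and KIF23 (-0.16) then had adjusted p between 0.127 and 0.541. Without C1 replicate 1 the pooled comparison called 3 mitotic members lower (6.89% of all genes, 13.6% of those with at least 8 CPM). Without C1 replicate 2 it called 5 (12.9% of all genes, 25.9% of those with at least 8 CPM). With offsets for GC content and length it called 6, with a median of -0.31, beside 11.4% of all genes lower.

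**Figure D4:**
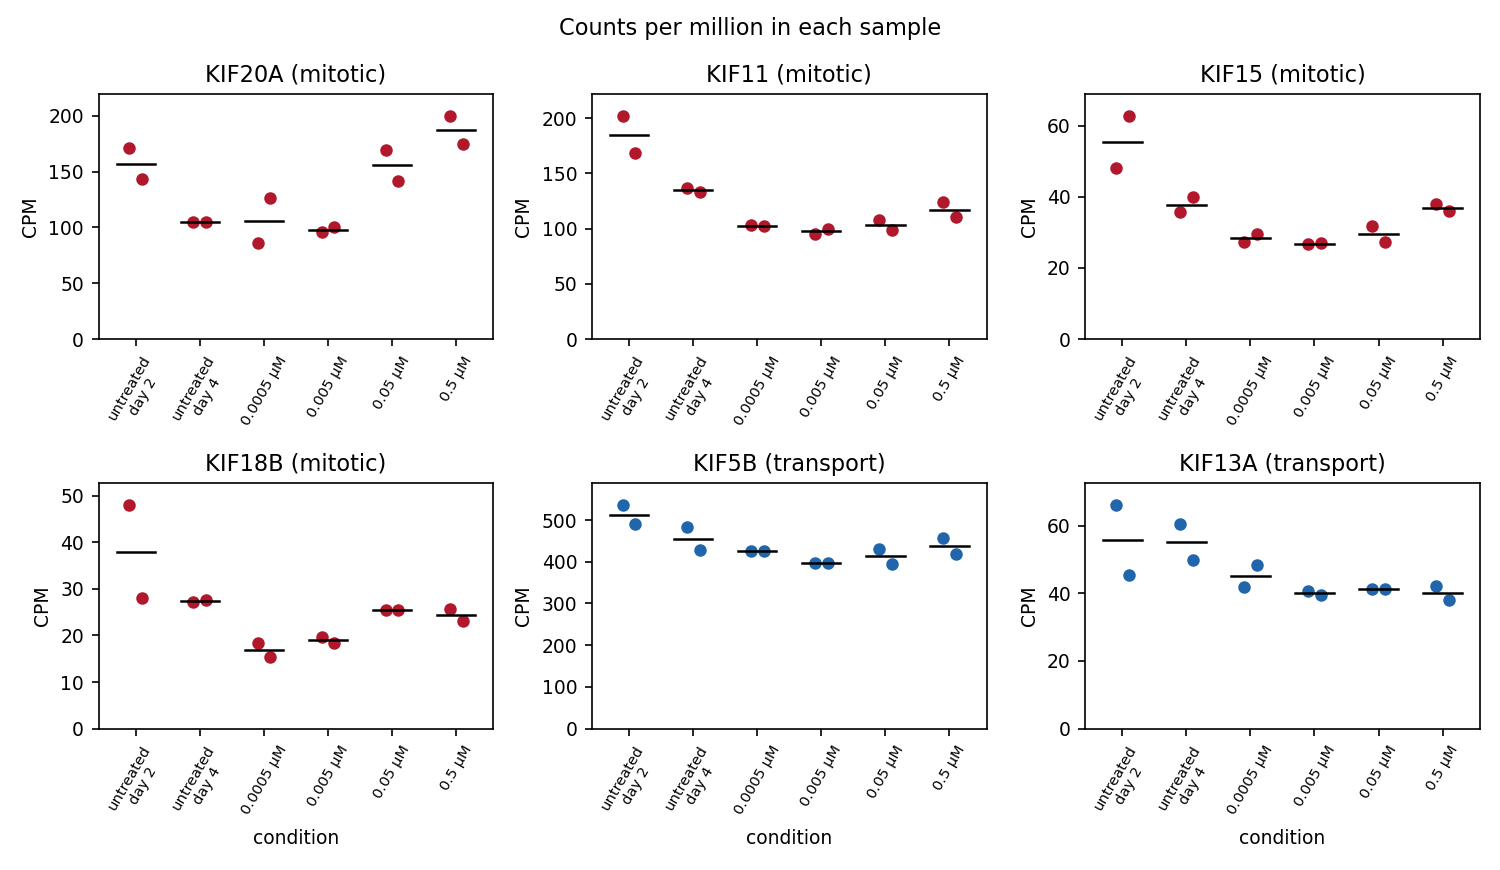
CPM in each of the 12 samples (points) and mean of each condition (bars) for 4 mitotic and 2 transport kinesins, with each axis starting at 0. KIF11 has all treated samples at or below 124 CPM and all untreated ones at or above 133 CPM, KIF20A reaches 200 CPM at 0.5 μM, and KIF5B stays between 395 and 535 CPM.

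The transport kinesins that passed the test went in both directions. In treated against untreated samples, 2 of 14 were called lower and 2 higher, against 11.3% and 13.1% of all genes. KIF13A, a carrier of recycling endosomes, had 45.3 to 66.0 CPM in the untreated and 38.1 to 48.4 CPM in the treated samples. The groups overlapped in C1 replicate 2 alone. Its log2 fold change was -0.41 ± 0.10 (SE, n = 8 and 4, edgeR adjusted p = 0.00767), and it was -0.39 ± 0.10 against C2 alone (edgeR adjusted p = 0.0167). KIFC3, a motor that walks to microtubule minus ends and acts at cell junctions, had 335 and 208 CPM in C1, 260 and 224 CPM in C2 and 159 to 211 CPM with drug, a log2 fold change of -0.40 ± 0.12 (edgeR adjusted p = 0.0224) that was -0.30 with an adjusted p of 0.0873 against C2 alone.

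KIF17, a kinesin-2 motor of dendrites and cilia, was higher at a low level. It had 0.576 and 0.388 CPM in C1, 1.05 and 0.589 CPM in C2 and 1.05 to 1.64 CPM in the treated samples, and the groups met at 1.05 CPM without crossing. The log2 fold change was 1.03 ± 0.21 (edgeR adjusted p = 0.00252) and 0.74 ± 0.23 against C2 alone (edgeR adjusted p = 0.0473).

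KIF5A, the neuronal heavy chain of conventional kinesin, was near the limit of detection. It had 1 and 1 counts in C1, 3 and 1 in C2, 16 and 9 at 0.0005 μM, 31 and 32 at 0.005 μM, 23 and 35 at 0.05 μM and 12 and 18 at 0.5 μM. Each treated sample was above each untreated one, as for KIF17, and 7.39% of all genes tested had that order. Pooled, 176 treated and 6 untreated counts gave a ratio of 11.4 in CPM (95% interval 5.12 to 31.4, counting error only). The fitted log2 fold change was 3.39 ± 0.49 (SE, n = 8 and 4, edgeR adjusted p = 0.000154). With at most 3 counts in an untreated sample, KIF5A passed the filter through its treated samples alone. Its edgeR calls, here and at single doses, therefore describe a gene selected where it is high. Against C2 it was called at 0.005, 0.05 and 0.5 μM, with fitted log2 fold changes of 3.39, 3.43 and 2.80, and each of these calls was lost in at least 1 fit that left out a C2 sample or a sample of that dose. KIF5A shares 71 of its 12245 exon bases with DCTN2 on the opposite strand, which had 62.9 to 92.6 CPM in the 12 samples, and the part of DCTN2 in these counts was not tested.

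KIF5B, by contrast, had 535 and 490 CPM in C1, 483 and 427 CPM in C2, 426 and 426 CPM at 0.0005 μM, 397 and 396 CPM at 0.005 μM, 431 and 395 CPM at 0.05 μM and 458 and 419 CPM at 0.5 μM. Its log2 fold change was -0.21 ± 0.09 (SE, n = 8 and 4, edgeR adjusted p = 0.117). The other transport members tested, KIF1B, KIF1C, KIF3A, KIF3B, KIF3C, KIF5C, KIF13B, KIF16B and KIFC2, ranged from -0.43 for KIF1C to 0.09 for KIFC2 and were not called. Without C1 replicate 1 the pooled comparison called 1 of 14 transport members lower, with a median of -0.17, and without C1 replicate 2 it called 7, with a median of -0.29. Beside these stand 6.89% and 12.9% of all genes, and 13.6% and 25.9% of those with at least 8 CPM. KIF1A had 18 counts in the treated and 0 in the untreated samples, at least 2.32-fold higher against a floor of 3 counts over the group. Of the 18 counts 8 were in 0.05 μM replicate 1, without which the bound was 1.48-fold, and both 0.5 μM samples held 0.

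Among the other kinesins, KIF21A, KIF24 and KIF2A were lower in treated samples. They were 3 of the 10 tested, against 11.3% of all genes called lower and 2353 of the 11154 genes with at least 8 CPM. KIF21A had 50.2 to 59.6 CPM without and 38.0 to 49.9 CPM with drug, a log2 fold change of -0.32 ± 0.09 (SE, n = 8 and 4, edgeR adjusted p = 0.0188) that was -0.35 ± 0.10 against C2 alone (edgeR adjusted p = 0.0343). With GC and length offsets KIF21A was at -0.18 ± 0.07 (edgeR adjusted p = 0.0651), and the call was also lost with no filter and without C2 replicate 1. KIF24, a centriolar motor that restrains cilia, had 13.1 to 19.7 CPM without and 9.95 to 12.5 CPM with drug, a log2 fold change of -0.40 ± 0.12 (edgeR adjusted p = 0.0227). Neither KIF21A nor KIF24 overlapped between the groups, and 5.77% of all genes tested had the same order of treated below untreated samples. Against C2 alone, however, KIF24 was at -0.22 ± 0.11 (edgeR adjusted p = 0.213). KIF2A, a depolymerase at spindle poles, had 51.1 to 57.4 CPM without and 40.2 to 51.3 CPM with drug, which overlapped, and a log2 fold change of -0.26 ± 0.09 (edgeR adjusted p = 0.0369) that was kept in 5 of the 12 fits that left out 1 sample. Against C2 alone KIF2A was at -0.21 ± 0.10 (edgeR adjusted p = 0.176), and with GC and length offsets it was at -0.10 ± 0.08 (edgeR adjusted p = 0.4). The call was also lost with no filter. KIF2A was placed outside the mitotic class although it also acts on the spindle, and its slope of -0.07 and its log2 fold change of -0.28 at 0.5 μM were negative, so the statement that all mitotic slopes were positive depends on this placement. KIF6, KIF7, KIF9, KIF12, KIF21B, KIF26B and KIF27 ranged from -0.68 for KIF12 to 0.30 for KIF26B and were not called. KIF26A had 11 counts in treated and 0 in untreated samples, at least 1.42-fold higher against the same floor, with 4 counts in each 0.5 μM sample and a bound of 1.02 or 0.999 without one of them. KIF19 had 2 and 0.

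The 25 partners and regulators of mitotic kinesins had medians of the same sign as the motors in both comparisons. In the pooled comparison 9 of 25 were lower and 0 higher, against 11.3% and 13.1% of all genes, and their median was -0.36 on the log2 scale. Against C2 alone 5 were lower, against 6.42% of all genes, and the median was -0.12. At 0.5 μM against C2 the median was 0.22 with 2 called higher, against 4.36% of all genes. From day 2 to day 4 without drug all 25 had a negative fold change, with a median of -0.47; edgeR called 0 of them, and 19 had an unadjusted p under 0.05, against 4.71% of all genes. The largest pooled differences were those of CDK1, the kinase that starts mitosis, at -1.01 ± 0.17 (edgeR adjusted p = 0.000475), INCENP, the scaffold of the chromosomal passenger complex, at -0.93 ± 0.20 (edgeR adjusted p = 0.00369), and NUSAP1, a spindle protein, at -0.82 ± 0.13 (edgeR adjusted p = 0.000416). With dose, 12 of 25 rose and 0 fell, against 1.04% and 2.11% of all genes, with a median slope of 0.18. CDK1 (-0.11), INCENP (-0.01) and NUSAP1 (-0.08) were not among them. Against C2 alone these 3 were at -0.61, -0.57 and -0.51, with edgeR adjusted p between 0.00408 and 0.0176.

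Of 19 regulators of cell cycle gene promoters, 9 were lower in the pooled comparison and 0 higher, against 11.3% and 13.1% of all genes, at a median of -0.30 (log2), and with dose 0 of 19 were called, with a median slope of 0.01. Against C2 alone 6 of 19 were lower, beside 6.42% of all genes, at a median of -0.18. The activators E2F2 (-1.13 ± 0.19, edgeR adjusted p = 0.000583) and E2F1 (-1.09 ± 0.14, edgeR adjusted p = 4.46e-05) and the DREAM subunit RBL1 (-1.07 ± 0.12, edgeR adjusted p = 1.6e-05) had the largest differences, and their slopes were -0.0005, -0.03 and -0.09. Against C2 alone the 3 were at -0.68, -0.84 and -0.79, with edgeR adjusted p between 0.000154 and 0.00548. Against C2 at 0.5 μM, where the median of the mitotic kinesins was above 0, E2F1 was at -0.89 ± 0.23 (SE, n = 2 and 2, edgeR adjusted p = 0.0403) and RBL1 at -0.85 ± 0.14 (edgeR adjusted p = 0.00556).

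Of 20 kinesin light chains and cargo adaptors, 1 was lower and 1 higher in the pooled comparison, against 11.3% and 13.1% of all genes, and the median was -0.13. KIFBP, which binds and inhibits several kinesins, was lower (-0.37 ± 0.09, edgeR adjusted p = 0.00571). KLC3, a light chain at 0.0164 to 0.359 CPM, was higher (1.57 ± 0.44, edgeR adjusted p = 0.0163). It averaged 0.0712 CPM untreated and 0.217 CPM treated. Its untreated samples alone would not have passed the filter, so this call describes a gene selected where it is high. Of 30 dynein and dynactin genes, the minus-end motor system, 3 were lower: HOOK1 (-0.57 ± 0.10, edgeR adjusted p = 0.00104), NIN (-0.38 ± 0.10, edgeR adjusted p = 0.0113) and PAFAH1B1 (-0.25 ± 0.09, edgeR adjusted p = 0.0496). Their median was -0.21, and 3 of 30 stands beside the 11.3% of all genes called lower. Against C2 alone KIFBP and HOOK1 were still called, at -0.33 and -0.57, and KLC3, NIN and PAFAH1B1 were not, with edgeR adjusted p between 0.0649 and 0.187. HOOK2 was also called in that fit, at -0.49 (edgeR adjusted p = 0.0426), which makes 2 of 30 beside 6.42% of all genes. With dose 0 of the 20 and 1 of the 30, SPDL1, a dynein adaptor at kinetochores, were called as rising, against 1.04% of all genes, and none of either list as falling, against 2.11%.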

How the data were processed

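RNA-seq libraries of the 12 samples were sequenced as paired reads on a NovaSeq. According to the methods and labels, the authors trimmed reads with Trimmomatic 0.39, checked them with FastQC 0.11.9, aligned them to GRCh37 with STAR 2.7.5, kept unique alignments and counted reads in exons per gene; the deposited values are raw read counts. Strand settings are not given in the sources used here. Each sample's own file held the same counts as the series table for all 63568 identifiers. Counts were tested with edgeR 4.0.16 (robust quasi-likelihood fit, TMM, filterByExpr by condition, two-sided, Benjamini-Hochberg over all genes tested, called under 0.05), with 6 conditions in 1 fit for the dose and day comparisons and fits of their own for treated against untreated and for log10 dose. The filters kept 25249 and, for dose, 25057 genes. CPM used TMM-scaled library sizes, and RPKM the exon lengths of GENCODE v44 lifted to GRCh37, which is not the authors' annotation. DESeq2 1.42.0, other filters, scalings and controls, GC offsets and leaving out samples were alternatives. The fits were tested on simulated data. Members, classes and lists were chosen with earlier results of these data known, so none is independent evidence. All members are reported. Of each list, the genes named are those called in treated against untreated, at most the 3 largest in each direction; SPDL1 and HOOK2 were named after their values were seen. Intervals cover counting error only.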

Additional observations from a re-analysis of the deposited data

Results flagged for a closer look

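In 74 groups of values (the 4 untreated and the 8 treated samples for each of 37 members), the highest or lowest sample was set against the others by its gap to the nearest sample as a share of the whole range. It stood apart beyond Dixon's 95% critical value in 6 groups (8.11%), and chance gives about 1 in 20 for samples of 1 population. The untreated samples here pool 2 days and the treated ones 4 doses, so that share does not apply directly. Of the 6, 4 were a C1 sample above the other 3 untreated samples. KIF24 in C1 replicate 1 (19.7 CPM, next 13.2 CPM) had a gap of 0.977 of the range, and KIF18B in the same sample (47.9 CPM, next 28.1 CPM) had 0.939. KIF18A in C1 replicate 2 (80.2 CPM, next 58.3 CPM) had 0.863, and KIF9 in that sample (17.1 CPM, next 12.3 CPM) had 0.844. The other two were in the second 0.0005 μM sample, where KIF13A was highest of the 8 treated samples (48.4 CPM, next 42.3 CPM, a gap of 0.566) and KIFC3 lowest (159 CPM, next 186 CPM, a gap of 0.559). KIF24, KIF18B, KIF18A, KIF13A and KIFC3 were called in treated against untreated, and without C1 replicate 1 the calls of KIF24 and KIF18B were lost, as was that of KIFC3. Without C1 replicate 2 the call of KIF18A was lost.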

How the results depend on the processing

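No result changed its direction past the threshold under any alternative run. Calls over all genes in the main fits numbered 592, 827, 2100 and 1596 at 0.0005, 0.005, 0.05 and 0.5 μM, 82 for day, 6155 for treated against untreated and 789 for dose slope, and called members numbered 0, 1, 2, 2, 0, 14 and 7. DESeq2 called 1173, 1362, 271 and 1690 genes at 0.0005 μM, at 0.005 μM, for day and for slope, with 2, 3 and 1 members in the first 3 of these. With no filter beyond 1 count there were 1480, 1909, 2807, 390 and 1462 genes at 0.0005, 0.005 and 0.5 μM, for day and for slope, with 2 members at 0.0005 μM. The samples of each comparison alone gave 2624, 2592, 2578 and 0 genes at 0.0005, 0.005 and 0.5 μM and for day, with 7, 9 and 5 members at those 3 doses. For day, that fit had 134 genes lower and 465 higher at an unadjusted p under 0.05. GC and length offsets gave 1159, 1376, 2435, 167 and 1255 genes at 0.0005, 0.005 and 0.5 μM, for day and for slope, with 4 members at each dose and 12 for slope, and a mitotic median of -0.31 in treated against untreated. Untreated day 4 alone as control gave 3408 genes, 5 members and a mitotic median of -0.16. The cause of these shifts was not tested.

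Replicate numbers did not pair the samples: replicate differences of the conditions correlated between -0.596 and 0.698 over 15 pairs of conditions, and 8 were over 0.1. The replicate block gave 421 genes for slope, and the slopes of KIF14 and KIF23 were then not called. With the GC offsets and the replicate block there were 1211, 1511, 2580 and 162 genes at 0.0005, 0.005 and 0.5 μM and for day, 3, 4, 4 and 5 members at the 4 doses, 11 for slope, and a mitotic median of -0.31 in treated against untreated.

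Leaving out 1 sample gave between 144 and 2552 genes at 0.0005 μM, 85 and 3316 at 0.005 μM, 321 and 4843 at 0.05 μM, 129 and 5046 at 0.5 μM, 47 and 2682 for day and 123 and 1008 for slope, the high counts at the doses and for day coming without a C1 sample. Members called ranged from 0 to 9, 0 to 12, 0 to 10 and 0 to 10 at the 4 doses, 0 to 9 for day, 7 (without C1 replicate 1) to 17 in treated against untreated and 1 to 8 for slope. The mitotic median at 0.5 μM ranged from 0.0328 (without 0.5 μM replicate 1) to 0.19, and the transport median for day from -0.12 to 0.26. Depth left KIF1A, KIF19 and KIF26A untested, and KIF6, KIF12 and KIF5A held 88, 100 and 182 counts in all, and 2 samples per condition limit all dose comparisons.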
